A study of Mus musculus with 12 samples.

Results

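The MHC class II antigen presentation pathway was read through 10 genes in the drug comparisons of a mouse RNA sequencing experiment: Cd74, H2-Aa, H2-Ab1, H2-Eb1, H2-DMa, H2-DMb1, H2-DMb2, H2-Oa, H2-Ob and Ciita. They were chosen by symbol, and all 10 were found among the 55487 genes of the deposited tables. The RNA came from LSK cells, the bone marrow fraction without lineage markers and with Sca-1 and Kit on the surface, which holds stem cells and multipotent progenitors. All 4 groups, vehicle included, carried the genotype labelled homozygous JAK2V617F on the C57BL/6 strain, in a bone marrow transplant experiment. There were 3 libraries each of vehicle, of palbociclib, which blocks the cell cycle kinases CDK4 and CDK6, of ruxolitinib, which blocks the cytokine receptor kinases JAK1 and JAK2, and of both drugs together, here called the combination. The labels give no dose, age, sex or time, nor the share of host cells left after transplant. They do not say whether a library is 1 animal or a pool, so the spread between libraries may be technical. The tables imply 18.2 M to 44.7 M reads in genes per library. Both ends of that range are libraries of the combination, while the vehicle libraries ran from 31.5 M to 34.8 M. On GRCm38 the 8 H2 genes lie in the MHC on chromosome 17, from the start of H2-Oa at base 34092340 to the end of H2-Eb1 at 34316674, and Ciita lies on chromosome 16 from 10480059 to 10528418.

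MHC class II molecules carry peptides from the endosome to the cell surface, where CD4 T cells read them. Each is a pair of an alpha and a beta chain that is held by the invariant chain (Cd74) on its way to the endosome. There H2-DM removes the last fragment of the invariant chain and selects for tightly bound peptides, and H2-O restrains H2-DM. Transcription of the class II genes depends largely on the transactivator encoded by Ciita, which binds no DNA itself. This protein joins the RFX, CREB and NF-Y factors on the paired X and Y boxes of class II promoters. Interferon gamma raises Ciita through the kinases JAK1 and JAK2, which ruxolitinib inhibits. B cells, dendritic cells and macrophages are the main class II positive cells of the marrow, and lower expression on stem and progenitor cells is also known.

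The X and Y boxes are shown first, since they are the promoter elements known to be shared by class II genes. RefSeq windows from 250 bases before to 50 after a gene start (build GRCm38.p6) matched 7 of the 10 genes (all but Cd74, H2-Ab1 and Ciita), in 8 windows. The core of the X box was searched as ACNGATG and that of the Y box as GATTGG on both strands; the 2 patterns can overlap by no more than 1 base, and the matches printed do not overlap. In the lines below, capitals mark the matches and the sequence runs 5′ to 3′ on the strand of the gene.
H2-Aa, chr17:34287857-34287917, minus strand: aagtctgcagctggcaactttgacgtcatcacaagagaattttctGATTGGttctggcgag
H2-Eb1, chr17:34305762-34305822, plus strand: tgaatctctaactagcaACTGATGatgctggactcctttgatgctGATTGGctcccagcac
H2-DMb1, chr17:34153084-34153144, plus strand: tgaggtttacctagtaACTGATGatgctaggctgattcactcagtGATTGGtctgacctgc
H2-DMb2, chr17:34145113-34145173, plus strand: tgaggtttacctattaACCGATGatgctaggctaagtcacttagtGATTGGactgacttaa
H2-Oa, chr17:34092237-34092350, plus strand: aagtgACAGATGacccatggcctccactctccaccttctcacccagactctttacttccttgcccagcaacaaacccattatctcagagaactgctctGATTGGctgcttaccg
H2-Ob, chr17:34238802-34238862, plus strand: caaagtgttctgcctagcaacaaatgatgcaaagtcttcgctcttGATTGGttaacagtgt

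A Y box match was present in a window of all 7 genes, against 16.1% of the 32851 windows of all genes, and an X box match in 5 of the 7, against 9.85%. In H2-Eb1 the X box match began 28 bases before the Y box match, and in H2-DMb1 and H2-DMb2 it began 29 bases before it. An X box match 20 to 35 bases before a Y box match on the same strand, a distance chosen after these sequences were seen, occurred in 17 of all 32851 windows (0.0517%). The lone H2-Oa match lay 93 bases before the Y box, and that of H2-Aa lay on the other strand, outside the stretch printed. H2-DMa has 2 windows, of which 1 held a Y box match and neither an X box match. The fixed pattern misses X boxes with other letters, so genes without a match at that spacing may still have one there. The printed stretches of H2-DMb1 and H2-DMb2 were equal at 52 of 61 bases (85.2%). The exons of these neighbouring genes were not compared here, and how reads matching both would be counted is not given in the sources used here.

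Values per library were not used here, so levels are given per group. They are modelled normalised reads, solved from the deposited fold changes and errors, each with a 95% interval that covers counting error and the modelled spread. Per kb of exon, the order in vehicle was Cd74 at 1042 normalised reads per kb, H2-Ab1 at 879, H2-DMa at 873, H2-DMb1 at 609, H2-Eb1 at 546, H2-Aa at 344, H2-Oa at 249, H2-Ob at 199, H2-DMb2 at 44.6 and Ciita at 26.4. Neighbours in that order had overlapping intervals except H2-DMa with H2-DMb1 and H2-Ob with H2-DMb2. Among 14809 genes ranked per kb in vehicle, Cd74 stood at percentile 89.9, H2-Ab1 at 87.7 and Ciita at 22.4. All but H2-DMb2 and Ciita lay above the median gene, so the class II transcripts were well detected in these libraries. In the combination the interval of Cd74, at 3279 normalised reads per kb, lay above that of every other member.

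**Figure D1:**
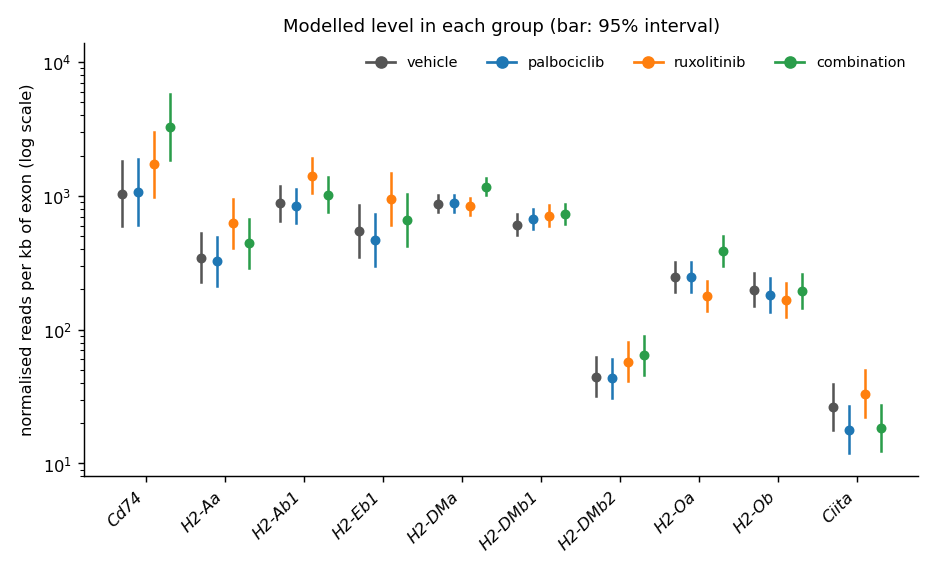
Modelled level of each MHC class II gene in normalised reads per kb of exon (vertical log axis) in the 4 groups, with 95% intervals as bars. Cd74 stands highest in the combination, at 3279 reads per kb, and H2-DMb2 and Ciita lie lowest in all 4 groups.

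Against vehicle, 2 of the 10 genes rose in the combination and the other 8 did not pass; the 2 were Cd74, about 3-fold, and H2-DMa, about 1.3-fold. A gene was called at an adjusted p under 0.05 in the authors' DESeq2 fit, over the genes given an adjusted p in that comparison. In the authors' deposited tables, 23% of the 19228 genes tested in the combination were called, and 12.9% were called higher, so 2 of 10 is near the background. In bulk RNA, fewer cells of a type and less RNA per cell cannot be told apart. In the same comparison 7 of 18 B cell genes and 10 of 12 plasma cell genes rose, and their part in the rises of Cd74, H2-DMa and the neighbouring H2-Eb2 was not tested. Under palbociclib 0 of the 10 were called by DESeq2 and 0 had an unadjusted p under 0.05, where 8.63% of 15448 genes were called. Under ruxolitinib 0 were called and 2 had an unadjusted p under 0.05, H2-Ab1 and H2-Aa, where 2.96% of 15448 genes were called. The median log2 fold change of the 10 genes was -0.05 under palbociclib, 0.36 under ruxolitinib and 0.33 in the combination. Over all genes tested the medians were 0.02, 0.01 and 0.06. The 3 comparisons share the vehicle libraries.

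**Figure D2:**
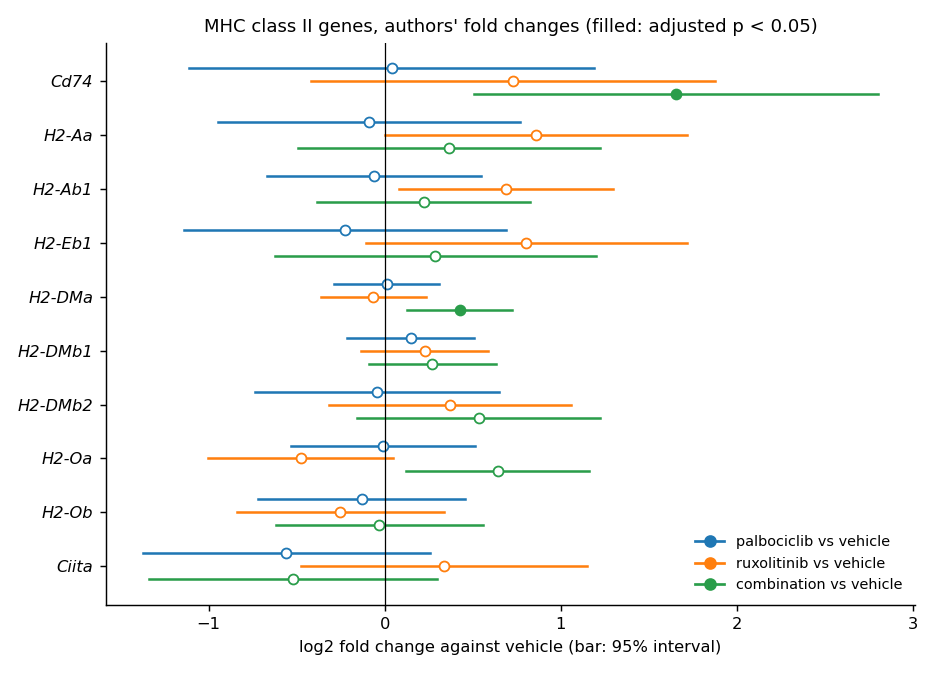
Log2 fold change of each MHC class II gene against vehicle in the authors' deposited tables (horizontal axis). Bars are 95% intervals computed here from the deposited errors, and filled points mark an adjusted p under 0.05. The filled points are Cd74 and H2-DMa in the combination, and the 3 antigen-binding chains lie to the right of 0 under ruxolitinib without passing.

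The antigen-binding chains were highest under ruxolitinib, and 0 of these 3 genes passed in any comparison. H2-Ab1, the beta chain of I-A, was at 2258 normalised reads in vehicle (95% interval 1677 to 3041), 2167 under palbociclib, 3643 under ruxolitinib (2707 to 4904) and 2631 in the combination. Its intervals in vehicle and ruxolitinib overlapped. The log2 fold change of H2-Ab1 under ruxolitinib in the authors' deposited tables was 0.69 ± 0.31 (standard error; unadjusted p = 0.026, adjusted p = 0.28).

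H2-Aa, the alpha chain of I-A, was at 1308 normalised reads in vehicle, 1229.5 under palbociclib, 2370.4 under ruxolitinib and 1683 in the combination. For this chain the authors' deposited tables gave 0.86 ± 0.44 under ruxolitinib (unadjusted p = 0.0498, adjusted p = 0.39). H2-Eb1, the beta chain of I-E, was at 1061, 907, 1853 and 1295 normalised reads in the same order of groups. It was at 0.80 ± 0.46 under ruxolitinib in the authors' deposited tables (DESeq2 adjusted p = 0.49). Under palbociclib the 3 chains were between -0.23 and -0.06 in the authors' deposited tables, and in the combination between 0.22 and 0.36. For the combination, 95% intervals of the fold changes were computed here from the deposited errors. They were 0.710 to 2.33-fold for H2-Aa, 0.765 to 1.77-fold for H2-Ab1 and 0.649 to 2.30-fold for H2-Eb1.

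C57BL/6 mice carry a defective gene for the partner of H2-Eb1, the I-E alpha chain, and are known to lack I-E on the surface. That partner, H2-Ea, had a base mean of 0.144 normalised reads, the mean over all libraries of the authors' fit. The neighbouring gene H2-Eb2, a little-used beta chain, was no member of the set; it rose in the combination, from 15.8 to 109 normalised reads, at 2.78 ± 0.69 in the authors' deposited table (DESeq2 adjusted p = 0.00101). Of these neighbouring genes, 1 was tested under each single drug, where 0 passed by DESeq2 and 0 had an unadjusted p under 0.05, and 2 were tested in the combination.

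Cd74, the invariant chain, was at 1749 normalised reads in vehicle (95% interval 996 to 3070.2), 1797 under palbociclib (1023 to 3154), 2900.0 under ruxolitinib (1652 to 5090.4) and 5505 in the combination (3137 to 9661). The intervals of vehicle and the combination did not overlap, while those of both single drugs overlapped that of the combination. Cd74 rose in the combination in the authors' deposited table, at 1.65 ± 0.59 (adjusted p = 0.026). Cd74 thus had a 3.15-fold rise, with a 95% interval, computed here from the deposited error, that ran from 1.42 to 6.98-fold. Its fold changes under palbociclib and ruxolitinib were 0.04 ± 0.59 and 0.73 ± 0.59 in the authors' deposited tables, and neither passed (adjusted p = 0.98 and 0.69). Whether Cd74 changed by more than the chains it escorts was not tested, since the covariance between genes is not given.

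H2-DMa, the alpha chain of the peptide editor, had the smallest spread between libraries of the 10 genes. Its level was 3010.1 normalised reads in vehicle (95% interval 2602 to 3482), 3032 under palbociclib (2621 to 3508), 2879 under ruxolitinib (2488 to 3331) and 4045 in the combination (3497 to 4680). The first 3 groups overlapped closely. The interval of the combination lay above those of vehicle and ruxolitinib and overlapped the upper end of that of palbociclib. H2-DMa rose in the combination in the authors' deposited table, at 0.43 ± 0.15 (adjusted p = 0.027), a 1.34-fold rise. The annotated exons of H2-DMa share 360 bases, 10.4% of their length, with Brd2 on the opposite strand. The labels do not say that the counting used strand. Brd2 fell under palbociclib and in the combination in the authors' deposited tables, at -0.31 ± 0.10 and -0.27 ± 0.10 (adjusted p = 0.034 and 0.041), while H2-DMa was at 0.01 ± 0.15 under palbociclib.

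The beta chains of H2-DM did not pass in any comparison. H2-DMb1 was at 1024 normalised reads in vehicle, 1134 under palbociclib, 1199 under ruxolitinib and 1235 in the combination. H2-DMb2 was far lower, at 77.9, 75.5, 101 and 113 normalised reads. In the combination the authors' deposited table gave 0.27 ± 0.18 for H2-DMb1 (adjusted p = 0.30) and 0.53 ± 0.35 for H2-DMb2 (adjusted p = 0.28).

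The inhibitor of the editor is made of H2-Oa and H2-Ob. H2-Oa, its alpha chain, was at 350.2 normalised reads in vehicle (95% interval 271 to 452), 348 under palbociclib (270 to 450.5), 252 under ruxolitinib (194 to 326) and 546 in the combination (423 to 705). It was lowest under ruxolitinib and highest in the combination, and the intervals of these 2 groups did not overlap. In the authors' deposited tables its log2 fold change was -0.48 ± 0.27 under ruxolitinib (adjusted p = 0.47) and 0.64 ± 0.27 in the combination (unadjusted p = 0.016, adjusted p = 0.063), so neither passed. Adjusted over genes with a base mean of at least 50, the combination value passed (adjusted p = 0.048). The exons of H2-Oa share 321 bases, 22.8% of their length, with the opposite-strand gene BC051537. That gene had a base mean of 42.6 normalised reads and was not called in the authors' deposited tables.

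H2-Ob, the beta chain, was at 1071 normalised reads in vehicle, 978 under palbociclib, 899 under ruxolitinib and 1049 in the combination. Its fold changes lay between -0.25 and -0.03 in the authors' deposited tables, and 0 of 3 passed. The estimates of the 2 chains of H2-O stood apart in the combination, a difference between genes that was not tested.

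Ciita, the transactivator, had the lowest level per kb and did not pass in any comparison. It was at 252 normalised reads in vehicle (95% interval 169 to 374), 171 under palbociclib (114 to 255), 318 under ruxolitinib (214 to 473) and 175 in the combination (117 to 262). The intervals of all 4 groups overlapped. Its fold changes in the authors' deposited tables were -0.56 ± 0.42, 0.34 ± 0.41 and -0.52 ± 0.42 (adjusted p = 0.47, 0.84 and 0.39). Cd74 and H2-DMa were called higher in the combination, where the estimate for Ciita was below 0. Ciita shares 329 exonic bases with Dexi on the opposite strand, 3.45% of its exons.

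The drug arms were also compared with each other, by the difference of the deposited log2 fold changes. With the deposited errors summed, which ignores the shared vehicle libraries and is too wide, 0 of 10 genes were called in any of the 4 contrasts, and 2, 0, 0 and 1 had an unadjusted p under 0.05. These contrasts were the combination with ruxolitinib, the combination with palbociclib, palbociclib with ruxolitinib, and the combination with the sum of both drugs. That test called 0.467%, 0.00886%, 0.0591% and 0.0177% of 33851 genes. With group variances recovered from the same errors, 20.3%, 2.05%, 0.885% and 2.11% of 14810 genes were called. Vehicle cancels in the first 3 of these contrasts and enters the last.

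With the recovered variances 2 of the 10 genes were higher in the combination than with ruxolitinib, a share near the background of that contrast. H2-Oa was higher by 1.12 ± 0.27 on the log2 scale, a 2.17-fold difference (adjusted p = 0.00095, and 0.20 with summed errors). H2-DMa was higher by 0.49 ± 0.15 (adjusted p = 0.012, and 0.45 with summed errors). The estimate for Cd74 was 0.92 ± 0.59 and was not called (adjusted p = 0.25). The 3 antigen-binding chains had estimates from -0.52 to -0.47 in that contrast, and 0 of them was called.

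In the other contrasts 0 of 10 genes were called with either error. Between the combination and palbociclib all 10 estimates were above 0, with Cd74 at 1.62 ± 0.59 by the recovered variances (adjusted p = 0.10). Between palbociclib and ruxolitinib the estimates of H2-Eb1, H2-Aa, Ciita and H2-Ab1 were -1.03, -0.95, -0.90 and -0.75, each with an unadjusted p from 0.0155 to 0.0308 and an adjusted p of at least 0.33 by the recovered variances. For H2-Oa the combination exceeded the sum of both drugs by 1.13 ± 0.38 on the log2 scale (adjusted p = 0.080 by the recovered variances). The 95% interval of that departure ran from 0.38 to 1.87.

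The spread between libraries differed widely among the 10 genes. It was taken as the root of the dispersion in the authors' fit, which is the fraction by which replicate levels vary beyond counting. Cd74 had a spread of 49.7%, H2-Eb1 39.4%, H2-Aa 37.0% and H2-Ab1 26.2%. Genes within 2-fold of the same base mean had medians of 12.9% to 14.0%, and these 4 stood between percentiles 97.0 and 99.4 of them. By contrast H2-DMa, at 12.8%, and H2-DMb1, at 15.3%, stood at percentiles 49.6 and 59.9. H2-Ob, at 25.3%, stood at percentile 93.7, H2-Oa at 64.0, Ciita at 82.8 and H2-DMb2 at 23.6. The fit held other libraries, taken as 12, which enter this spread, and which libraries vary was not analysed here.

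**Figure D3:**
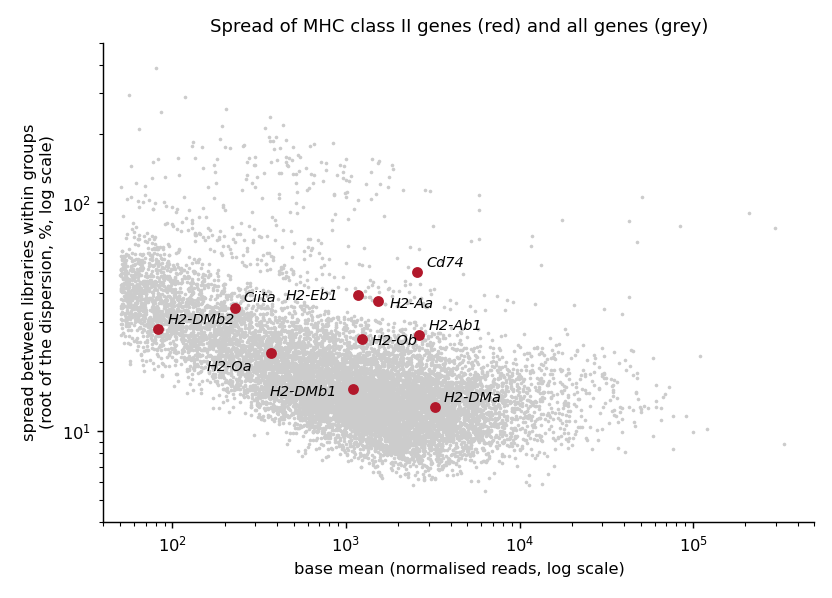
Spread between libraries within groups (root of the dispersion in percent, vertical log axis) against base mean in normalised reads (horizontal log axis) for all genes with a base mean of at least 50 (grey) and the 10 MHC class II genes (red). Cd74, H2-Eb1, H2-Aa and H2-Ab1 lie along the upper edge of the genes at their level, and H2-DMa and H2-DMb1 lie in the middle.

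Upstream of the 10 genes, the regulators of class II transcription went both ways. Of 23 regulators tested, 1 rose and 3 fell under palbociclib, 0 rose and 2 fell under ruxolitinib, and 2 rose and 7 fell in the combination, with medians of -0.24, -0.25 and -0.14. In the authors' deposited tables Ifngr1, a chain of the interferon gamma receptor, fell in all 3 comparisons, at -0.94 ± 0.17, -0.87 ± 0.17 and -0.72 ± 0.17 (adjusted p = 5.8e-06, 0.00014 and 0.00039). Irf8, a transcription factor of monocytes and dendritic cells, fell at -2.00 ± 0.30, -1.10 ± 0.30 and -2.34 ± 0.31 in the authors' deposited tables. Nfyc, a subunit of the Y box factor, fell in the combination at -0.60 ± 0.14 in the authors' deposited table (DESeq2 adjusted p = 0.00046), and Irf4, a factor of B and plasma cells, rose there at 4.96 with a standard error of 1.1 (adjusted p = 0.00021). The other regulator that rose in the combination was Prdm1, at 2.37 ± 0.77 in the authors' deposited table (DESeq2 adjusted p = 0.014). Irf4 and Prdm1 are also counted among the plasma cell genes below. Irf1, an interferon-induced transcription factor chosen after its values were seen, did not pass in any comparison in the authors' deposited tables.

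Of 14 genes of antigen processing and sorting, 3 fell under palbociclib, 1 fell under ruxolitinib, and 2 rose and 3 fell in the combination (medians -0.36, -0.39 and -0.01). Ifi30, the thiol reductase that unfolds antigens in the endosome, fell under palbociclib and in the combination, at -0.83 ± 0.28 and -1.25 ± 0.28 in the authors' deposited tables. Ctsl, an endosomal protease, rose in the combination at 0.76 ± 0.17 in the authors' deposited table. The endosomal GTPase gene Rab7b fell under palbociclib and in the combination, at -2.99 ± 0.51 and -2.24 ± 0.50 in the authors' deposited tables. Cd82, a tetraspanin, fell with each single drug, at -0.55 ± 0.18 and -0.61 ± 0.18 in the authors' deposited tables. Among 9 co-stimulation genes tested in the combination 2 rose, Tnfsf9 and Pdcd1lg2, and 0 fell. Under palbociclib 1 of 8 rose and under ruxolitinib 1 of 8 rose, Tnfsf9 each time, while Cd24a fell under ruxolitinib; the medians were 0.43, 0.36 and 0.49.

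The MHC class I pathway, which shows cytosolic peptides to CD8 T cells, served as a neighbour for comparison. Of 21 genes 0 passed under palbociclib or ruxolitinib by DESeq2, 4 and 3 of them with an unadjusted p under 0.05. In the combination 6 rose and 1, Canx, fell, with medians of 0.16, 0.16 and 0.30 in the 3 comparisons. H2-T23, H2-Q6 and H2-Q4 rose there at 0.83 ± 0.23, 0.61 ± 0.19 and 0.56 ± 0.16 in the authors' deposited table; these belong to a multigene family whose copies may share reads.

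Some markers of B cells, which carry class II, and of plasma cells, which lower it as they mature, rose in the combination. Of 18 B cell genes tested in the combination 7 rose and 0 fell. Their summed level went from 4831 normalised reads in vehicle to 9040.1, over the 10 genes with a level. Of these reads Cd37, which was not called, alone held 3291 in vehicle and 3062 in the combination. There Pou2af1, Cd79a and Fcrla rose in the authors' deposited table, at 5.63 ± 0.91, 5.69 ± 1.14 and 4.86 ± 1.09, and Cd79b at 1.28 ± 0.29. Under palbociclib 2 of 11 rose, and under ruxolitinib 0 of 11 passed by DESeq2, 1 of them with an unadjusted p under 0.05. Their median log2 fold changes were 0.77, -0.56 and 0.997 in the order palbociclib, ruxolitinib, combination. The single-drug medians are over 11 genes and that of the combination over 18. Of the defining B cell genes, Ms4a1, Cd22, Cr2 and Ebf1 had a base mean under 10 normalised reads. Of 12 plasma cell genes 10 rose in the combination, led by Jchain, and their summed level went from 10078 to 278320.0 normalised reads. It was 21261 under palbociclib, where 1 of 12 rose, and 8127 under ruxolitinib, where 0 passed by DESeq2 and 1 had an unadjusted p under 0.05. In the same order the medians of the plasma cell genes were 0.45, -0.79 and 3.35. Jchain alone, which encodes the joining chain of antibody polymers, went from 1264 to 252586 normalised reads, at 7.64 ± 0.98 in the authors' deposited table. Under palbociclib Jchain was at 11104.5 normalised reads.

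**Figure D4:**
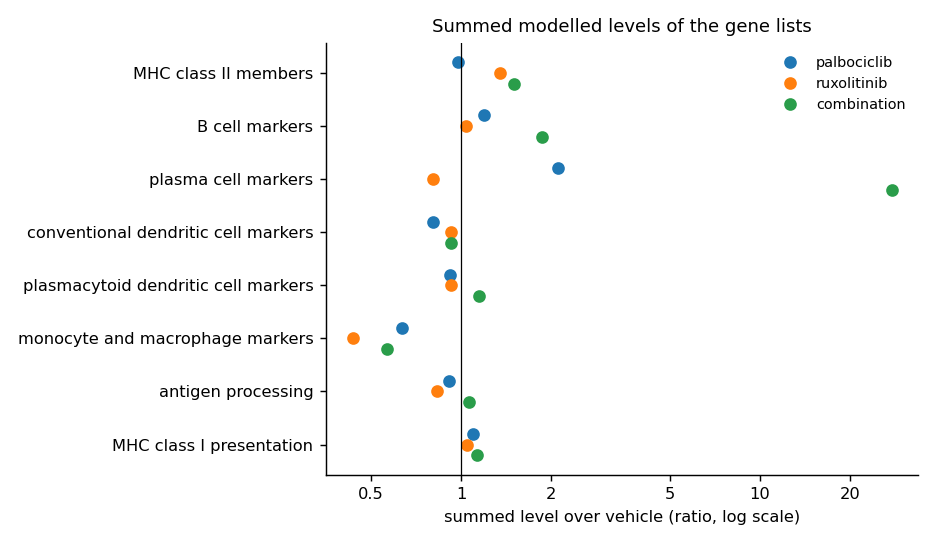
Summed modelled level of each gene list relative to vehicle (ratio on a horizontal log axis) in the 3 drug groups. The MHC class II genes stand at 0.973 under palbociclib, 1.35 under ruxolitinib and 1.5 in the combination, where the plasma cell genes stand at 27.6 and the B cell genes at 1.87. In the combination Jchain alone held 252586 of the 278320 normalised reads of the plasma cell genes. Cd37 alone held 3291 of 4831 normalised reads of the B cell genes in vehicle and 3062 of 9040 in the combination. Cd74 held 1749 of 12161 normalised reads of the class II genes in vehicle and 5505 of 18279 in the combination.

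Markers of monocytes, macrophages and dendritic cells were counted in the same way. Of 18 monocyte and macrophage genes 1 rose and 7 fell under palbociclib, 0 rose and 7 fell under ruxolitinib, and 1 rose and 9 fell in the combination, with medians of -0.73, -0.89 and -1.27. Their summed level was 18426 normalised reads in vehicle, 11665 under palbociclib, 8008 under ruxolitinib and 10406 in the combination. Of these reads, Lyz2 alone held 2953, 6468, 2838 and 6122 in the same order of groups. Lyz2 was the gene that rose under palbociclib and in the combination, while Cx3cr1, Csf1r and F13a1 fell in all 3 comparisons. Of 14 conventional dendritic cell genes 1 fell under palbociclib, 0 passed under ruxolitinib by DESeq2, with 2 at an unadjusted p under 0.05, and 4 fell in the combination (medians -0.56, -0.17 and -0.38). These included Clec9a and Itgax at -3.76 ± 0.94 and -1.31 ± 0.38 in the authors' deposited table. Of 11 plasmacytoid dendritic cell genes 2 rose in the combination, Ly6d and Ccr9, both also expressed by lymphoid cells. The marker Siglech had a base mean under 10 normalised reads. Of 8 tested with each single drug 0 passed by DESeq2, and 1 had an unadjusted p under 0.05 with each. The medians were 0.19, -0.19 and -0.28. The last also takes in Siglech, Spib and Cd300c, each with a base mean under 10, and is not comparable with the others.

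The libraries carried the genes of the sort. Kit was at 14276 normalised reads in vehicle and rose in the combination, at 0.48 ± 0.18 in the authors' deposited table. Ly6a, which encodes Sca-1, was at 1004 in vehicle and rose under palbociclib and in the combination, at 1.07 ± 0.35 and 1.83 ± 0.35 in the authors' deposited tables. Of the lineage genes, Ly6g had a base mean under 10. Cd5 was at 18.7, Itgam at 201 and Ly6c2 at 1744 normalised reads in vehicle, the last above Ly6a. Ly6c2 fell in all 3 comparisons, while Ptprc, Itgam, Cd34, Flt3, Slamf1 and Cd48 did not pass in any. Procr, with the smallest p of the sort genes, rose in all 3 comparisons. Its log2 fold changes by DESeq2 were 1.39 ± 0.32, 1.06 ± 0.32 and 2.27 ± 0.32 (adjusted p = 0.0011, 0.043 and 1.04e-09). In all, 2 of 11 sort genes rose and 1 fell under palbociclib, 1 rose and 1 fell under ruxolitinib, and 3 of 12 rose and 1 fell in the combination (medians 0.12, -0.06 and 0.27). T and NK cell genes were sparse, with 9 of 15 at a base mean under 10, among them Cd3e. By DESeq2 0 of 6 passed with either single drug, with 0 at an unadjusted p under 0.05. In the combination 1 of 9 rose and 2 fell (medians 0.15, 0.02 and -0.58 in the 3 comparisons). The combination median also takes in Cd3g, Trbc2 and Ncr1, each with a base mean under 10. It is therefore not comparable with the single-drug medians.

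The 5 genes whose 3 fold changes lay nearest to the median of the class II genes were A930037H05Rik, Metap1d, 2810025M15Rik, Zfp513 and Zfp882. Their Euclidean distances from it were 0.047 to 0.080 log2 units over the 3 comparisons, among 12085 genes with a base mean of at least 50. This is a description, since the comparisons share vehicle.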

How the data were processed

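RNA from 12 libraries of sorted mouse LSK cells was selected for polyA and sequenced. Per the submitters' processing notes the tools were HISAT2 2.0.1 on GRCm38, featureCounts 2.0.0, DESeq2, SAMtools 1.10 and fastp 0.20.0, with no settings given. Per the file headers, the deposited tables hold a base mean (a signal: the mean of normalised counts that the authors computed over all libraries of their fit), a log2 fold change and its standard error, the Wald score and the p-value with its adjusted value, all as the authors deposited them. The call was an adjusted p under 0.05 over the genes given an adjusted p, 15448 with each single drug and 19228 in the combination. Some genes of low count had an adjusted p in the combination only. In some lists the counts and medians of the combination therefore cover more genes.

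Base means of genes with a single read gave the size factors of 24 libraries, 12 of them not analysed here. The search was set to stop at 3 libraries per group and 12 others, so it could not have found more. The scale of the levels rests on that total. The 3 errors of a gene then gave its vehicle level and dispersion (3 equations, 2 unknowns), solved for 14826 of 14954 genes with a base mean of at least 10 (99.1%). Differences between arms used a 2-sided normal test with Benjamini-Hochberg adjustment. The code was tested on simulated data, with Python 3.11.15, numpy 2.4.6, pandas 2.3.3 and scipy 1.17.1. Exon lengths came from GENCODE on GRCm38, which holds 99.4% of the identifiers.

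The members, the 12 gene lists and the tests were chosen with earlier results of these data known. Named were all 10 members, up to 4 genes a list from those with the smallest p, the sort genes and the 5 nearest genes. Others were chosen after their values were seen.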

Additional observations from a re-analysis of the deposited data

How the results depend on the processing

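Leaving out each replicate was not run, since no value of a single library entered. No paired analysis was possible because the deposited tables give fold changes per comparison and no values per replicate. Levels could not be solved from the base mean, which includes other libraries, taken as 12. In the combination against vehicle, the 2 called genes became 0 at an adjusted p under 0.01 and 1 with a log2 fold change of at least 1; at 0.1 or at a base mean of at least 50 they were 3, with H2-Oa. Between the combination and ruxolitinib, the count of 0 became 2 with a correlation of 0.5 between estimates, 2 with recovered group variances, and 2 with those variances at a base mean of at least 50, an alternative added after the data were seen. The other counts of called genes did not change in the alternatives run. Recentring on the median gene was the only alternative that could alter an estimate, and all 30 recentred values of single genes kept their direction and their call. The other alternatives alter the threshold, the filter or the error; under them 8 values of single genes passed newly and 3 no longer passed.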
